A study of Homo sapiens with 72 samples.

Results

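The interferon-stimulated genes IFIT1, IFIT2, IFIT3, ISG15, DTX3L, PARP9, IRF1 and IRF9 were examined in A375 cells, an established human melanoma line. These 8 genes were chosen by name from the 44659 gene names of the count table. The choice was made with earlier results of these data known. Their shares beside those of all genes are therefore a description only. Cytoplasmic RNA had been sequenced with QuantSeq, which reads the 3′ end of polyadenylated mRNAs. In one experiment, cells were transfected for 42 h with a pool of 2 siRNAs against CTU2 (siCTU2), whose product helps to thiolate tRNAs, or with the control siRNA GL2 (siGL2). In the other, cells were kept for 18 h in medium lacking glutamine (mQ) or containing it (pQ). All cells then received triptolide, a transcription inhibitor (25 µM), alone (T arm) or with the translation inhibitor cycloheximide (100 µg/ml, TCHX arm), and were collected at 0, 3 or 5 h. This gave 24 groups of 3 replicates, so 72 libraries. No label says whether replicates came from separate cultures, and p-values measure only the spread between these samples.

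Interferons are secreted proteins that cells release on sensing viral RNA or DNA. Type I interferons bind the IFNAR1 and IFNAR2 receptor, whose kinases JAK1 and TYK2 phosphorylate STAT proteins. With IRF9, these form a complex that binds interferon-stimulated response elements (ISRE) in promoters. Interferon gamma acts through gamma-activated sites (GAS), as in the IRF1 promoter. Among the products, IFIT1, IFIT2 and IFIT3 bind foreign RNA or each other and limit its translation. ISG15 is a ubiquitin-like modifier, and DTX3L is a ubiquitin ligase that works as a complex with PARP9, a member of the ADP-ribosyltransferase family. IRF1 is a transcription factor that is known for a short-lived mRNA.

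The members are spread over several chromosomes, and all positions here are RefSeq gene spans on GRCh38. IFIT2 (89302046 to 89309271), IFIT3 (89327997 to 89340968) and IFIT1 (89392623 to 89406487) are neighbours on chromosome 10. PARP9 (122527924 to 122564784) and DTX3L (122564338 to 122575203) overlap at their 5′ ends on chromosome 3. ISG15 lies on chromosome 1 (1013497 to 1014540), IRF1 on chromosome 5 (132481609 to 132490773) and IRF9 on chromosome 14 (24161265 to 24166565).

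The promoters are shown because the members share response elements. Each window runs from 250 bases before to 50 bases after the transcription start in the RefSeq table (GRCh38.p14), and capitals mark matches to the ISRE letters, TTTC repeated after any 2 bases (GAAA repeated likewise on the other strand), or, for IRF1, the GAS letters TTCNNNGAA.
DTX3L promoter, chr3:122564088-122564387, plus strand: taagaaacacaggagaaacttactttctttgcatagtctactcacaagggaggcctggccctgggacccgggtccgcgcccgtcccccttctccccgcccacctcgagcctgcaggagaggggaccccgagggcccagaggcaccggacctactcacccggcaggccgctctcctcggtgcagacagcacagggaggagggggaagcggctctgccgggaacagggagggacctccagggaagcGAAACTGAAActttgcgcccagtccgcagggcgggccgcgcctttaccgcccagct
IFIT3 promoter, chr10:89327747-89328046, plus strand: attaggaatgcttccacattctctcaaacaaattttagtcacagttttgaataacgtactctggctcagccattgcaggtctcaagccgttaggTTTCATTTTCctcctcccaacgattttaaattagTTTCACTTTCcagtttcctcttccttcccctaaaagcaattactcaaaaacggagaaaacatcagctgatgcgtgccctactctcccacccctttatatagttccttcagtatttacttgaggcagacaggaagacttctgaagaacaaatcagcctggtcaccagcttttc
ISG15 promoter, chr1:1013247-1013546, plus strand: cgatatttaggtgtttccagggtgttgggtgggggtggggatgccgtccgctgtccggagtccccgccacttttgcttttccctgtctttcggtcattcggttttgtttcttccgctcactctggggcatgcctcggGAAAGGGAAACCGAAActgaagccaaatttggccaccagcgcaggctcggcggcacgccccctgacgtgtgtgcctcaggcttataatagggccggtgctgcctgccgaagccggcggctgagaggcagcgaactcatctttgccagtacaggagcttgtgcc
IRF1 promoter, chr5:132490724-132491023, minus strand: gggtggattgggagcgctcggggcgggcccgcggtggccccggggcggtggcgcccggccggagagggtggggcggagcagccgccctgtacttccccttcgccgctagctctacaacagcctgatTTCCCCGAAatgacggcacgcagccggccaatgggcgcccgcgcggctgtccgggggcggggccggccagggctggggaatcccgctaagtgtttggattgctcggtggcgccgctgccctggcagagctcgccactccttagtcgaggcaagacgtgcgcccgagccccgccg
The ISRE letters were in 3.57% of 35116 such windows and the GAS letters in 7.66%. DTX3L and PARP9 lie head to head on chromosome 3, and 1 of the 2 PARP9 windows in the table held the same 10 bases (122564332 to 122564341) as the DTX3L match, read on the other strand. The IFIT1 window, like each of the 2 IFIT3 windows, held 2 separate ISRE matches. In ISG15, the 2 matches overlapped. IRF1 and IRF9 had 1 GAS match each and no ISRE match, and IFIT2 was not among the table's entries. A match is a description of the letters only.

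The siRNAs are shown because seed-matched sites occur in some members. The guide strands, the reverse complements of the sense strands in the study's oligonucleotide list, are given with the seed (bases 2 to 8) in capitals.
siCTU2#1 guide: uUGGUCAUgagcuugauag
siCTU2#2 guide: aAGUCCUUcauguucacgc
Each matched CTU2 over its full 19 bases and no other protein-coding canonical transcript of the GENCODE annotation. A 7-base seed match of the first guide was in 9.13% and of the second in 11.7% of 19516 3′ untranslated regions. Those of DTX3L and PARP9 held 1 match to each guide, and those of IFIT2 and IRF9 held 1 match to the second. Those of IFIT1, IFIT3, ISG15 and IRF1 held none.

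Libraries held 5987692 to 15534331 counts, so 1 count was worth 0.0644 to 0.167 CPM, the unit that scales counts to the library total. CTU2 lay at 0.133 to 2.95 CPM in 17 of the 18 siCTU2 libraries and at 13.01 to 38.7 CPM in the 54 libraries of the other conditions. The library labelled siCTU2 TCHX 5 h replicate 3 went against its label with 10.4 CPM. It was 1 of 3 libraries of replicate 3, with mQ T 5 h and pQ TCHX 0 h, in which 19896 to 20364 genes were detected. The other 69 had 15507 to 17495. The gene JUN was at 25.9 CPM in mQ T 5 h replicate 3, against 1.18 and 0.225 CPM in replicates 1 and 2. In siCTU2 TCHX 5 h replicate 3 it was at 23.9 CPM, against 4.16 and 8.51 CPM. In pQ TCHX 0 h replicate 3 it was at 27.4 CPM, beside 27.2 and 29.8 CPM. The cause was not tested. The 6 leukocyte markers examined summed to 69.2 to 72.7 CPM in these 3 libraries and to 3.66 to 21.0 CPM in the others. PTPRC and CD3E, which mark leukocytes and T cells, accounted for this, while CD68, LYZ, MS4A1 and CD14 were not above the range of the others. None of the 3 entered the T arm comparisons at 0 h. Over time, the counts of members and of the main gene lists are given with and without them, as are the member values at 3 h and under cycloheximide whose call changed, and single genes of the lists are given with all libraries. Their part in those results was not tested. Of the melanocyte markers, SOX10, MITF, DCT and S100B were detected, whereas MLANA, TYR and TYRP1 stayed at or below 2.07 CPM.

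The members were present at unequal depth. ISG15, DTX3L, PARP9, IRF1 and IFIT3 had counts in all 72 libraries, with totals of 15892, 44164, 22490, 5375 and 4406 counts. IFIT1 and IFIT2 were near the detection limit, with 609 and 623 counts in all and 0 counts in 9 and 7 libraries. IRF9 had 11 counts in all and 0 in 64 libraries. The table holds a second IRF9 name with 0 counts, and of the 11 listed genes, markers included, with such an extra name 10 had a median of 0 CPM at 0 h, so the IRF9 level is uncertain and no fold change is given. None of the 9 interferon genes on the list was frequent enough to be tested.

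**Figure D1:**
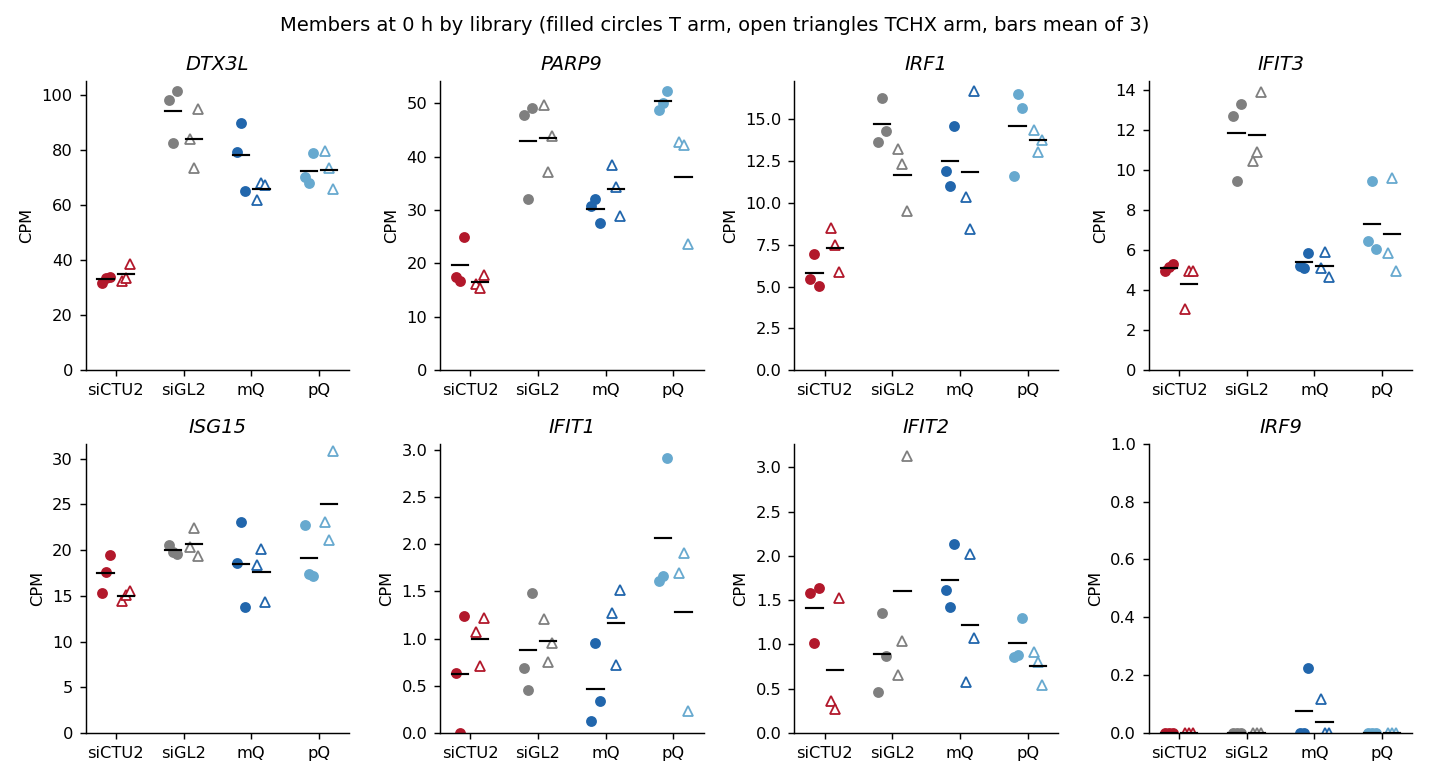
CPM (y axis) of each member in the 24 libraries at 0 h by condition (x axis), with filled circles for the T arm, open triangles for the TCHX arm and bars for the mean of 3. DTX3L, PARP9, IFIT3 and IRF1 in siCTU2 lie below every siGL2 library of either arm.

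The siCTU2 cells were first compared with siGL2 cells at 0 h, using the T arm. DTX3L, PARP9, IRF1 and IFIT3 were lower in siCTU2 cells (log2 fold changes of -1.51 to -1.11), and 0 members were higher. ISG15 and IFIT2 did not pass the test, and IFIT1 and IRF9 had too few counts to enter it. Thus 4 of the 6 members tested were lower, against 18.2% of all 12292 genes tested (17.8% were higher). The members' median log2 fold change was -1.16 and that of all genes 0.00.

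DTX3L stood at 31.6, 33.7 and 34.0 CPM in siCTU2 cells and at 98.1, 82.6 and 101 CPM in siGL2 cells. The groups did not overlap, and the fitted log2 fold change reached -1.51 (SE 0.10, edgeR adjusted p = 3.22e-09, n = 3 per group). Its partner PARP9 had 17.5, 16.8 and 25.0 CPM in siCTU2 cells against 47.8, 32.1 and 49.0 CPM in siGL2 cells, again without overlap (log2 change -1.11, SE 0.17, edgeR adjusted p = 6.21e-05). The 2 genes that meet at one promoter were thus both lower.

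IRF1, the transcription factor, had 5.48, 6.92 and 5.05 CPM in siCTU2 cells against 13.6, 16.3 and 14.3 CPM in siGL2 cells. All siCTU2 libraries lay below all siGL2 libraries (log2 change -1.35, SE 0.21, edgeR adjusted p = 4.94e-05). For IFIT3, the RNA-binding partner of IFIT1 and IFIT2, the values were 4.95, 5.16 and 5.29 CPM against 12.7, 9.49 and 13.3 CPM. Here too the groups were separate (log2 change -1.20, SE 0.22, edgeR adjusted p = 0.000348).

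The modifier gene ISG15 differed little, with 15.3, 17.6 and 19.5 CPM in siCTU2 cells and 20.6, 19.8 and 19.6 CPM in siGL2 cells. The log2 fold change of -0.19 did not pass (SE 0.15, edgeR adjusted p = 0.339). IFIT2 had 15, 11 and 21 counts in siCTU2 and 4, 12 and 7 counts in siGL2 libraries, which overlap (log2 change 0.64, SE 0.55, edgeR adjusted p = 0.387). IFIT1 had 6, 0 and 16 counts against 6, 4 and 12, so that no difference was detectable at this depth.

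The 0 h libraries of the TCHX arm gave a second set of samples. DTX3L (log2 fold change -1.26, SE 0.11), PARP9 (-1.40, SE 0.14), IFIT3 (-1.44, SE 0.24) and IRF1 (-0.66, SE 0.21) were lower there too, with edgeR adjusted p-values of 4.58e-08, 1.97e-07, 9.89e-05 and 0.0213. ISG15 passed the test in this arm at -0.46 (SE 0.15, edgeR adjusted p = 0.0201), with 14.4, 15.04 and 15.5 CPM in siCTU2 and 20.3, 22.4 and 19.4 CPM in siGL2 libraries. IFIT2 had the opposite sign, -1.25 (edgeR adjusted p = 0.164).

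Grouped by role, the rest of the pathway moved unevenly. Among other antiviral interferon-stimulated genes, 13 of 35 tested were lower and 1, HELZ2, higher, with a median of -0.25. The share that was lower, 37.1%, stood beside 18.2% of all genes. ISG20, an exonuclease of viral RNA, fell from 30.7 ± 3.79 to 12.7 ± 4.77 CPM (SD, n = 3; log2 change -1.26, edgeR adjusted p = 7.59e-05). SP110, a nuclear body protein, fell from 59.7 ± 4.80 to 31.0 ± 3.64 CPM (-0.94, edgeR adjusted p = 4.42e-06), and DDX60, a helicase, from 4.83 ± 1.05 to 2.57 ± 0.505 CPM (-0.91, edgeR adjusted p = 0.0426).

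Of 14 receptor and JAK-STAT genes tested, 2 were lower and 1 was higher. The kinase gene JAK1 fell from 52.5 ± 3.14 to 18.0 ± 3.58 CPM (SD, n = 3; log2 change -1.54, edgeR adjusted p = 1.03e-07), and the receptor gene IFNAR2 from 46.5 ± 2.86 to 29.2 ± 3.80 CPM (-0.67, edgeR adjusted p = 0.000301). SOCS1, which inhibits JAK kinases, rose from 0.234 ± 0.112 to 1.95 ± 0.473 CPM (2.97, edgeR adjusted p = 0.00135). None of 11 sensing genes passed the test in either direction. Of 9 IRF1 and interferon-gamma targets, CIITA, the activator of MHC class II genes, alone passed and rose from 17.4 ± 1.65 to 43.4 ± 6.31 CPM (1.31, edgeR adjusted p = 7.62e-07). IRF2, the single tested gene among the other IRF family members, did not pass.

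Of the 5 melanocyte markers tested in the same libraries, MITF fell (log2 fold change -1.48, edgeR adjusted p = 7.24e-09) and DCT rose (0.77, edgeR adjusted p = 0.0486). CD68, the single leukocyte marker tested, did not pass. Among genes with an annotated 3′ untranslated region, the median log2 fold change was 0.02 for the 8442 without a seed match to either CTU2 siRNA, -0.09 for the 2024 with a match to 1 of them and -0.23 for those with a match to both (2.84% of genes, DTX3L and PARP9 included). Median lengths of those regions were 1120, 2910 and 5051 bases, so the number of matches moved with length. The part of either in the DTX3L and PARP9 values was not tested. IRF1 and IFIT3, which were also lower, have no match.

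**Figure D2:**
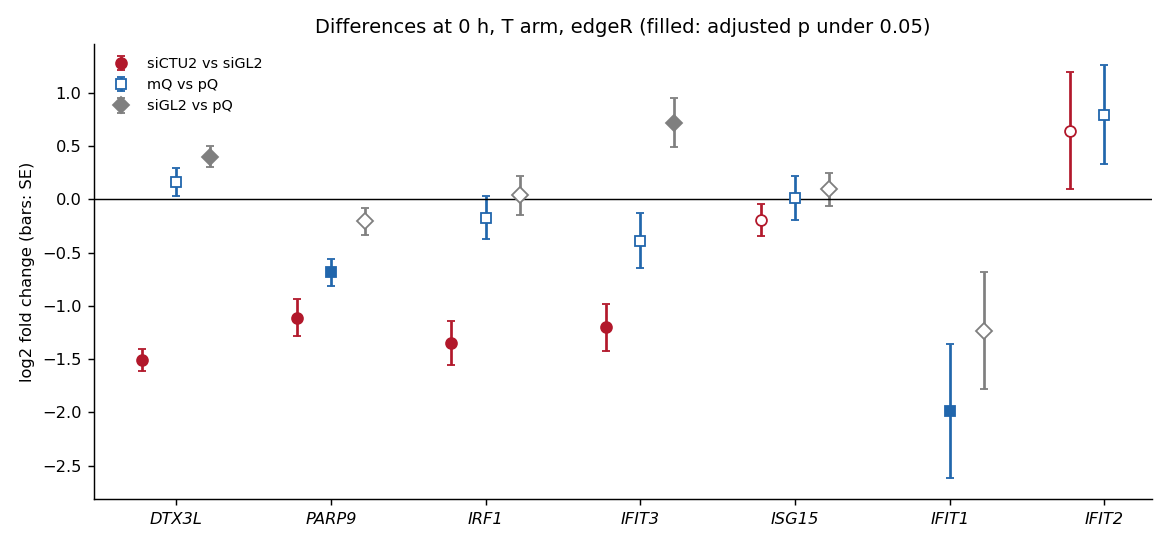
Log2 fold changes with SE (y axis) of 7 members (x axis) for siCTU2 against siGL2, mQ against pQ and siGL2 against pQ at 0 h, T arm, 3 libraries per group. Filled symbols have an edgeR adjusted p under 0.05. DTX3L lies at -1.51 for siCTU2 against siGL2 and at 0.16 for mQ against pQ.

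Glutamine depletion was examined in the same way. PARP9 and IFIT1 were lower in mQ than in pQ cells, and 0 members were higher. Of the 7 members tested 2 were therefore lower, against 12.4% of 12374 genes, with medians of -0.17 for the members and 0.01 for all genes. PARP9 had 30.7, 32.1 and 27.7 CPM in mQ cells and 48.7, 50.0 and 52.3 CPM in pQ cells. The groups were separate (log2 change -0.69, SE 0.12, edgeR adjusted p = 0.00272).

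DTX3L did not follow PARP9, with 79.3, 89.8 and 65.0 CPM in mQ and 70.0, 68.0 and 79.0 CPM in pQ cells. These values overlap (log2 change 0.16, SE 0.13, edgeR adjusted p = 0.399). IFIT1 had 1, 10 and 3 counts in mQ and 15, 17 and 36 counts in pQ libraries (log2 change -1.99, SE 0.63, edgeR adjusted p = 0.0379). Its call was lost when any library but mQ replicate 2 was left out (log2 fold changes of -1.59 to -2.14 over those fits).

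IRF1 had 11.9, 11.04 and 14.6 CPM in mQ and 11.6, 16.5 and 15.7 CPM in pQ cells (log2 fold change -0.17, edgeR adjusted p = 0.567). IFIT3 had 5.20, 5.14 and 5.85 CPM in mQ and 6.44, 9.48 and 6.08 CPM in pQ cells, without overlap but past no threshold (-0.39, SE 0.26, edgeR adjusted p = 0.304). ISG15 (0.01, SE 0.21) and IFIT2 (0.80, SE 0.47) did not pass either. In the TCHX arm at 0 h no member passed: PARP9 was at -0.07 (edgeR adjusted p = 0.88) with all libraries and at -0.30 (edgeR adjusted p = 0.141) without pQ replicate 3, and IFIT1 at -0.08 and -0.62.

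The wider pathway moved both ways in mQ cells. Of 36 other antiviral genes 6 were higher and 3 lower (median 0.12), beside 12.5% and 12.4% of all genes. IFI35, an interferon-induced leucine zipper protein, rose from 20.9 ± 2.00 to 42.0 ± 2.26 CPM (SD, n = 3; log2 change 1.06, edgeR adjusted p = 0.000369). DDX60 rose from 3.52 ± 0.692 to 8.63 ± 0.823 CPM (1.34, edgeR adjusted p = 0.00398), and TRIM21, an intracellular antibody receptor, fell from 3.11 ± 0.519 to 1.13 ± 0.625 CPM (-1.42, edgeR adjusted p = 0.0404). Of 13 receptor and JAK-STAT genes, 2 were higher and 2 lower. USP18, which removes ISG15 from proteins, rose from 3.19 ± 0.838 to 8.16 ± 1.63 CPM (1.39, edgeR adjusted p = 0.00572), while SOCS3 (-1.89) and IFNGR1 (-1.20) fell.

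Of 11 sensing genes, TRIM25, a ubiquitin ligase for RIG-I, rose (log2 fold change 0.87, edgeR adjusted p = 0.000368), as did the adaptor gene MAVS (0.44, edgeR adjusted p = 0.031), and TRAF3, a signalling adaptor, fell (-0.36, edgeR adjusted p = 0.0431). Among the IRF1 and interferon-gamma targets, CIITA rose (0.65). MITF was 1 of 5 melanocyte markers tested and fell (-1.16, edgeR adjusted p = 0.000235). IRF2 and CD68 did not pass.

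The 2 effects were then set against each other in one fit over the 12 T arm libraries at 0 h. The siRNA effect minus the glutamine effect passed for 2 of the 7 members tested, both negative, against 16.1% of 12950 genes (15.9% were positive). It was -1.67 for DTX3L (SE 0.17, edgeR adjusted p = 9.82e-07) and -1.17 for IRF1 (SE 0.28, edgeR adjusted p = 0.00349). For PARP9, which was lower under both, it was -0.43 (SE 0.23, edgeR adjusted p = 0.17), and for IFIT3 -0.82 (SE 0.33, edgeR adjusted p = 0.0658). In the TCHX arm the DTX3L value was -1.13 (edgeR adjusted p = 0.000113), PARP9 passed at -1.32 (edgeR adjusted p = 0.00186) and IRF1 did not (-0.46, edgeR adjusted p = 0.368). The corresponding values without pQ replicate 3 were -1.07, -1.09 and -0.46. Without replicate 1 of the T arm, IRF1 was at -1.09 and did not pass (edgeR adjusted p = 0.0573).

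Transfection with the control siRNA was also compared with pQ. These libraries serve as controls above, and transfection, the siRNA itself, the time in culture and the experiment cannot be told apart here. DTX3L and IFIT3 were higher in siGL2 than in pQ cells (2 of 6 members tested, against 9.73% of 12236 genes), and 0 were lower, against 8.88%. DTX3L was at 0.40 (SE 0.10, edgeR adjusted p = 0.00443) and IFIT3 at 0.72 (SE 0.23, edgeR adjusted p = 0.0311), while IRF1 (0.04), ISG15 (0.09), PARP9 (-0.21) and IFIT1 (-1.23, SE 0.55, edgeR adjusted p = 0.128) did not pass. The medians were 0.07 for the members and 0.00 for all genes. The IFIT3 call was lost without replicate 1 or 3 of either group (0.59 to 0.66), and neither gene passed in the TCHX arm. Against pQ, siCTU2 cells were lower in DTX3L (-1.10, edgeR adjusted p = 7.88e-08), PARP9 (-1.32, edgeR adjusted p = 3.78e-07) and IRF1 (-1.31, edgeR adjusted p = 7.59e-05) but not in IFIT3 (-0.49, edgeR adjusted p = 0.153).

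Among other antiviral genes, 5 of 36 were higher and 3 lower in siGL2 cells. SAMD9L (log2 change 0.81, edgeR adjusted p = 0.0438) and DDX60L (0.64, edgeR adjusted p = 0.038) rose. Of 13 receptor and JAK-STAT genes, JAK1 rose (0.35) and STAT3 fell (-0.42). Of 11 sensing genes, TRAF3 (-0.54) and TRIM25 (-0.25) fell. CIITA fell among the IRF1 and interferon-gamma targets (-1.15, edgeR adjusted p = 1.1e-06). Of 5 melanocyte markers, SOX10 rose (0.36) and DCT fell (-1.70).

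The stability of the members' mRNAs was next followed after triptolide. Because totals fall after a transcription block, counts were scaled to stable genes, 197 in the siRNA and 81 in the medium experiment, that made up 4.30% and 2.51% of counts. All values over time are relative to these genes, none of which is a member. The median change of all genes from 0 to 3 h in the T arm was -0.55 (siCTU2), -0.47 (siGL2), -0.71 (mQ) and -0.69 (pQ), as log2 values. With TMM scaling, which centres all genes near 0, it lay between -0.0022 and 0.0141.

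IRF1 fell steeply in all 4 conditions. At 3 h the T arm held 17.1%, 2.10% and 1.00% of the 0 h level of the same replicate in siCTU2 cells, 4.09%, 8.92% and 7.55% in siGL2 cells, 8.61%, 11.9% and 9.14% in mQ cells and 3.79%, 7.63% and 10.6% in pQ cells. No library kept more than 17.1%. The log2 changes were -3.92 (SE 0.84), -3.84 (SE 0.42), -3.34 (SE 0.67) and -3.68 (SE 0.40), with edgeR adjusted p-values of 0.00197, 7.26e-06, 0.00116 and 3.21e-06. IRF1 also passed under TMM scaling in all 4 conditions, at -2.60 to -3.37.

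At 5 h, IRF1 lay between 0.552% and 9.70% of its 0 h level in 11 of 12 T arm libraries. The twelfth, mQ T 5 h replicate 3, 1 of the 3 libraries with leukocyte marker counts, held 41.7%. The mQ change from 0 to 5 h was -2.22 with it and -4.42 without it, and both passed (edgeR adjusted p = 0.00878 and 1.28e-07).

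DTX3L fell more slowly. At 3 h, siCTU2 cells held 42.6%, 47.8% and 44.5% of the 0 h level and siGL2 cells 61.7%, 55.0% and 62.2%, and at 5 h siCTU2 cells held 17.7%, 22.6% and 20.7% and siGL2 cells 49.4%, 57.9% and 50.4%. The siCTU2 and siGL2 values did not overlap at either time, though the difference in T arm decay itself was not tested. The share of all genes without such overlap was not computed. The median change of all genes at 3 h was also lower in siCTU2 (-0.55) than in siGL2 cells (-0.47). For siCTU2, siGL2, mQ and pQ, log2 changes to 3 h were -1.15, -0.74, -1.05 and -0.81, with edgeR adjusted p-values of 0.000682, 0.00285, 0.000518 and 0.000293. At 5 h they were -2.30, -0.93, -1.18 and -1.02, the mQ value being -1.36 (edgeR adjusted p = 4.12e-06) without the library that stood apart.

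PARP9 fell in all 4 conditions, with log2 changes at 3 h of -0.83, -0.65, -0.77 and -0.90 (SE 0.19 to 0.25) and edgeR adjusted p-values of 0.0169, 0.015, 0.00428 and 0.00423. At 5 h it held 28.7%, 34.6% and 28.9% of the 0 h level in siCTU2 cells and 53.3%, 62.4% and 42.2% in siGL2 cells. These 2 groups did not overlap at 5 h, but their difference was not tested and the share of all genes without overlap was not computed. Under TMM scaling neither DTX3L (-0.61 to -0.12) nor PARP9 (-0.28 to -0.05) passed at 3 h in any condition. With a replicate number left out, the DTX3L call was lost in siGL2 cells without replicate 1 or 2 (-0.77 and -0.69), and the PARP9 call in siCTU2 and siGL2 cells without replicate 1 (-0.77 and -0.69) and in all 4 conditions without replicate 2 (-0.97, -0.69, -0.82 and -0.88).

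IFIT3 fell in siCTU2 (-0.97, SE 0.30), mQ (-1.68, SE 0.47) and pQ cells (-0.98, SE 0.40), with edgeR adjusted p-values of 0.0175, 0.00686 and 0.0452, and was at -0.83 (SE 0.44, edgeR adjusted p = 0.168) in siGL2 cells at 3 h. At 5 h it passed in siGL2 cells as well (-1.80, edgeR adjusted p = 0.00423). The RNA-binding gene IFIT2 had 47 counts at 0 h and 3 counts at 3 h over the mQ libraries, a ratio after scaling of 21.8 (95% exact Clopper-Pearson interval 7.01 to 109, counting error only), and its fitted change passed (edgeR adjusted p = 0.00307). In siCTU2 cells it passed at 3 h (-1.74, SE 0.66, edgeR adjusted p = 0.0487) and had 0 counts in each of the 3 T arm libraries at 5 h, at least 21.9-fold lower than at 0 h against a floor of 3 counts over the group. IFIT2 did not pass at 3 h in siGL2 or pQ cells. Under TMM scaling IFIT3 passed in 0 of the 4 conditions (-0.94 to -0.29), and its calls were lost in siCTU2 cells without any one replicate (-1.11 to -0.74) and in mQ and pQ cells without replicate 1 (-1.60 and -1.44) or 2 (-1.58 and -0.65). The siCTU2 call for IFIT2 was lost in the same way (-2.07 to -1.26).

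ISG15 passed in 0 of the 4 conditions at 3 h with scaling to stable genes. Under TMM scaling its log2 changes were 0.10 to 0.56, and the largest, in siGL2 cells, passed (edgeR adjusted p = 0.0495). It held 58.0% to 106% of the 0 h level in siCTU2, 100% to 116% in siGL2, 58.4% to 72.0% in mQ and 49.3% to 89.2% in pQ libraries. IFIT1 did not pass in siCTU2, siGL2 or pQ cells and had too few counts to be tested in mQ cells. In all, 5 of 7, 3 of 7, 5 of 6 and 4 of 7 members passed for siCTU2, siGL2, mQ and pQ, each of them lower, beside 37.2%, 29.7%, 56.5% and 56.3% of all genes in either direction. The members' median changes were -0.97, -0.74, -1.36 and -0.98. Without the libraries that stood apart, 4 of 7, 6 of 7 and 5 of 7 passed for siCTU2, mQ and pQ, each of them lower. The shares of all genes above do not belong to these fits. Their median changes were -0.97, -1.67 and -0.98 for the members and -0.55, -0.71 and -0.69 for all genes. IFIT2 no longer passed in siCTU2 cells (edgeR adjusted p = 0.0519), while ISG15 passed in mQ (-0.62, edgeR adjusted p = 0.0324) and IFIT1 in pQ cells (-1.40, edgeR adjusted p = 0.0216).

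**Figure D3:**
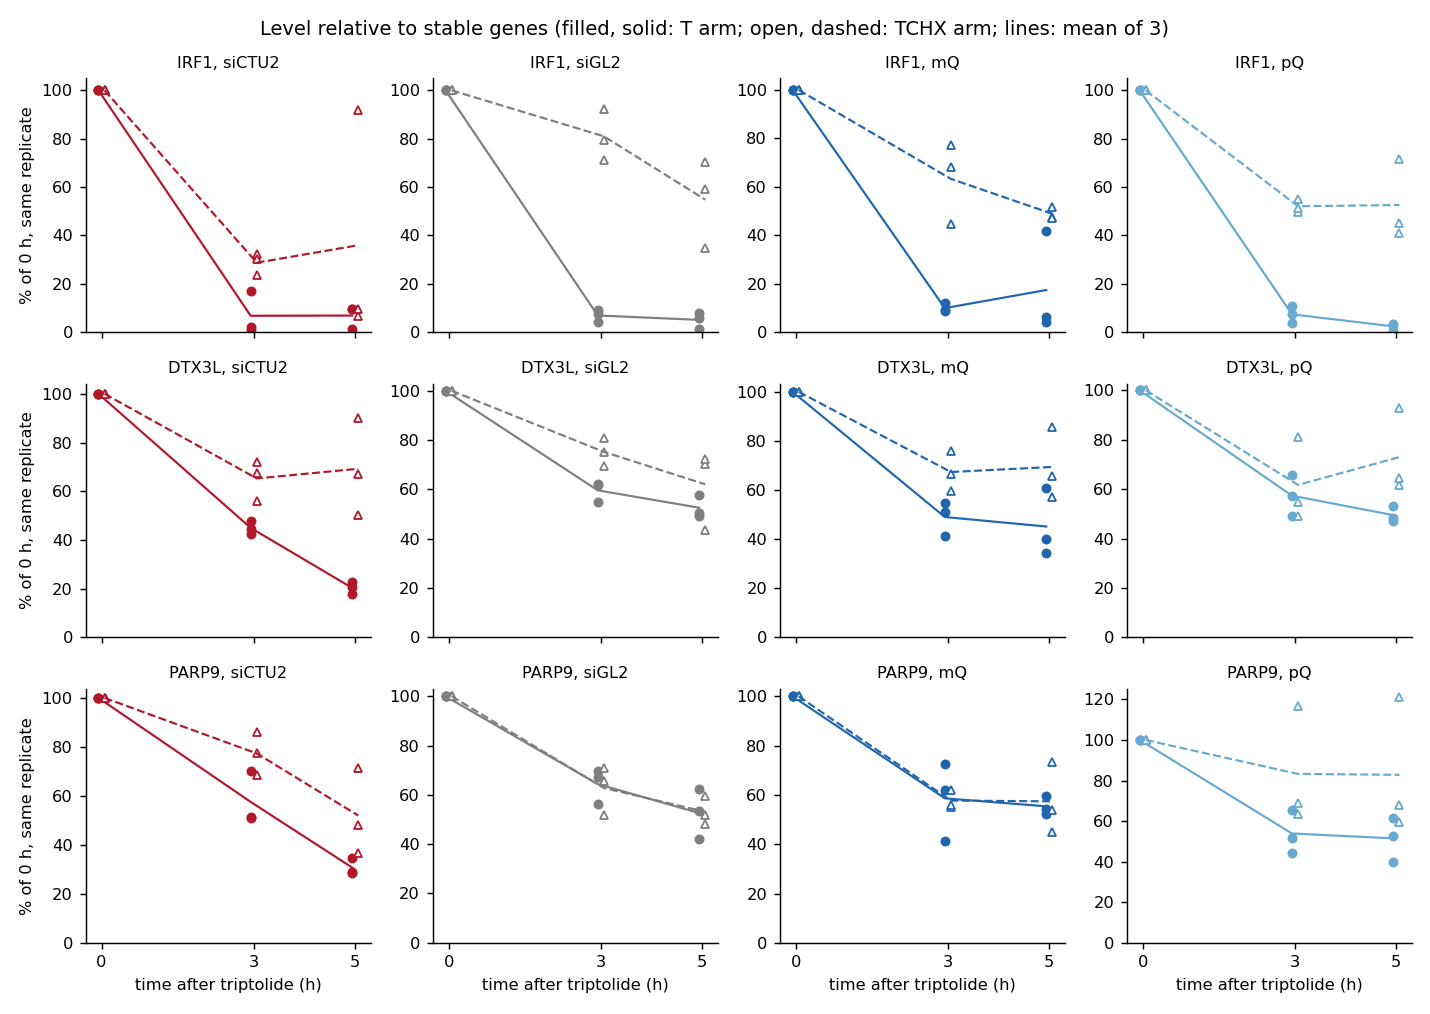
Percent of the 0 h level of the same replicate (y axis) of IRF1, DTX3L and PARP9 against time after triptolide (x axis, h) in 4 conditions, scaled to stable genes, with filled points and solid lines for the T arm, open points and dashed lines for the TCHX arm and lines through the mean of 3. IRF1 in the T arm is at or below 17.1% at 3 h in every library.

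Of the other antiviral genes, 11 of 36, 8 of 37, 18 of 38 and 17 of 36 fell at 3 h, the conditions being in the same order, and 0 rose. These shares of 30.6%, 21.6%, 47.4% and 47.2% were each below the shares of all genes called in either direction, given above, and the medians were -0.48, -0.44, -0.60 and -0.63. Without the libraries that stood apart, 12 of 36, 24 of 38 and 18 of 37 fell in siCTU2, mQ and pQ cells. No share of all genes is given for those fits. IFIT5, a relative of the IFIT members, fell in siCTU2 (-1.46, SE 0.27, edgeR adjusted p = 0.000595) and siGL2 cells (-1.21, SE 0.44, edgeR adjusted p = 0.0496). PARP14, another ADP-ribosyltransferase, fell in siGL2 (-0.63, SE 0.13, edgeR adjusted p = 0.00194) and mQ cells (-0.91, SE 0.15, edgeR adjusted p = 0.000518). Their values in the remaining conditions are not given. Of the receptor and JAK-STAT genes, 6 of 14, 3 of 13, 12 of 13 and 9 of 13 fell. SOCS3 was at -3.84 in siCTU2 and at -5.18 in siGL2 cells (edgeR adjusted p = 1.44e-05 and 0.000316). For sensing genes the counts were 5, 3, 8 and 7 of 11, and for IRF1 and interferon-gamma targets 1, 1, 4 and 3 of 10 (6 of 9 in mQ cells without the library that stood apart), among which CIITA fell in every condition (-1.08 to -1.38). IRF2 fell in all 4 conditions (-0.59 to -1.28).

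The effect of blocking translation was measured as TCHX minus T, averaged over 3 and 5 h. IRF1 was higher with cycloheximide in all 4 conditions, by 2.33 (SE 0.59) in siCTU2, 3.10 (SE 0.30) in siGL2, 1.82 (SE 0.44) in mQ and 3.40 (SE 0.31) in pQ cells, as log2 values. The edgeR adjusted p-values were 0.00804, 1.46e-06, 0.0242 and 4.64e-07. At 3 h the TCHX arm held 23.8%, 32.1% and 30.2% of the 0 h IRF1 level in siCTU2 cells and 71.2%, 92.3% and 79.5% in siGL2 cells, above all T arm libraries of the same condition. The siCTU2 values were thus below the siGL2 values. That difference itself was not tested, and the share of all genes without such overlap was not computed.

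At 5 h the siCTU2 TCHX libraries held 6.49%, 9.37% and 91.9% of IRF1, the last being the library that went against its label. Without the 3 libraries that stood apart, the cycloheximide effect on IRF1 was 1.45 in siCTU2 (SE 0.50, edgeR adjusted p = 0.0539) and 2.92 in mQ cells (SE 0.26, edgeR adjusted p = 1.26e-07). The call in siCTU2 cells was thus lost without that library, at 3 h alone (2.36, edgeR adjusted p = 0.153) and without replicate 2 or 3 (2.55 and 1.25). The mQ call was lost without replicate 1 or 2 (1.57 and 1.72). The difference of the effect on IRF1 between siCTU2 and siGL2 cells did not pass with it (-0.78, SE 0.71, edgeR adjusted p = 0.855) or without it (-1.66, SE 0.59, edgeR adjusted p = 0.406).

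DTX3L was higher with cycloheximide in siCTU2 cells (1.16, SE 0.15, edgeR adjusted p = 2.46e-05), whereas it was at 0.15 (SE 0.11), 0.35 (SE 0.12) and 0.25 (SE 0.10) in siGL2, mQ and pQ cells, which did not pass. At 5 h, siCTU2 libraries of the TCHX arm held 50.3%, 67.2% and 90.2% of the 0 h level, all above the T arm, and without the last, from the library that stood apart, the effect was 1.00 (edgeR adjusted p = 2.45e-05). At 5 h, siGL2 libraries held 70.4%, 72.2% and 43.6%, which overlap their T arm. The effect was larger in siCTU2 than in siGL2 cells by 1.01 (SE 0.19, edgeR adjusted p = 0.0114), and DTX3L was 1 of 50 genes with a positive call, 0.351% of the 14259 tested. Without the siCTU2 library that stood apart, the difference was 0.86 (SE 0.17, edgeR adjusted p = 0.0182). At 3 h alone it was 0.34 (edgeR adjusted p = 1), and under TMM scaling 0.85 (edgeR adjusted p = 0.0698). With the 0 h difference between the arms subtracted it was 0.89 (SE 0.32, edgeR adjusted p = 0.933), and without any one replicate number it was 0.70 to 1.17 and did not pass.

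In siCTU2 cells IFIT3 (0.75, SE 0.21, edgeR adjusted p = 0.0161) and IFIT2 (edgeR adjusted p = 0.00379) were higher with cycloheximide as well. IFIT2 had 6, 5 and 8 counts in the TCHX arm against 0, 0 and 0 in the T arm at 5 h, so its fitted size has no fixed value. The siCTU2 call for IFIT3 was lost without any one replicate number (0.67 to 0.89). Without the single library that stood apart, IFIT3 (0.81, edgeR adjusted p = 0.0131) and IFIT2 (edgeR adjusted p = 0.00987) passed. ISG15 and PARP9 did not pass in any condition. Without the mQ library that stood apart, DTX3L (0.45, edgeR adjusted p = 0.00685) and IFIT3 (1.09, edgeR adjusted p = 0.0107) passed in mQ cells. IFIT2 and IFIT1 passed there too (edgeR adjusted p = 0.00746 and 0.0382). Each had 3 counts over the 3 T arm libraries at 3 h, so their fitted sizes have no fixed value. At 5 h, IFIT1 had 0 counts in T arm replicates 1 and 2.

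Higher with cycloheximide were 4 of 7 members in siCTU2, 1 of 7 in siGL2, 1 of 6 in mQ and 1 of 7 in pQ cells, beside 21.0%, 12.1%, 5.12% and 12.3% of all genes, and 0 were lower. With all libraries, the members' medians were 0.75, 0.20, 0.51 and 0.25, and those of all genes 0.22, 0.05, 0.05 and 0.06. Without the libraries that stood apart, 3 of 7 were higher in siCTU2, 5 of 7 in mQ and 1 of 7 in pQ cells. The shares of all genes above do not belong to these fits, and in mQ cells more of all genes were called as well. Their medians were 0.81, 1.09 and 0.25 for the members and 0.16, 0.14 and 0.06 for all genes. No gene passed for the difference between mQ and pQ (0 of 14177 in edgeR, 525 at an unadjusted p under 0.05, 2 in DESeq2), and 82 genes, 0 of them members, passed in edgeR without the libraries that stood apart. For IRF1 this difference was -1.58 (SE 0.58, edgeR adjusted p = 1) and -0.48 (SE 0.43, edgeR adjusted p = 0.844) without the libraries that stood apart.

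**Figure D4:**
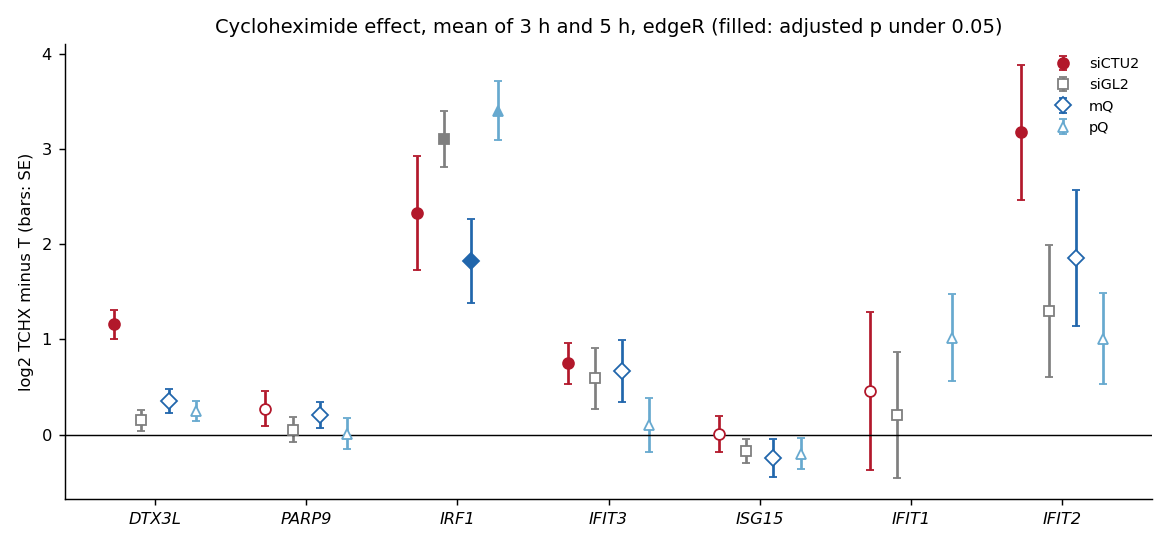
Log2 of TCHX minus T with SE (y axis), averaged over 3 and 5 h, of 7 members (x axis) in 4 conditions with all libraries. Filled symbols have an edgeR adjusted p under 0.05. IRF1 is filled in all 4 conditions and DTX3L in siCTU2 at 1.16.

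Among the other antiviral genes, 2 of 36 were higher and 1 lower in siCTU2, 1 of 37 higher in siGL2, 0 of 38 in mQ, and 1 of 36 lower in pQ cells. Without the libraries that stood apart, 1 of 36 was higher in siCTU2 and 5 of 38 in mQ cells, and 1 of 37 was lower in pQ cells. No share of all genes is given for these fits. IFIT5 was 1 of those higher in siCTU2 cells (1.27, SE 0.20, edgeR adjusted p = 0.000103). Of the receptor and JAK-STAT genes, 4 of 14, 2 of 13, 1 of 13 and 2 of 13 were higher (2 of 14 in siCTU2 cells without the library that stood apart). In pQ cells 1, the kinase gene TYK2, was lower (-0.38, edgeR adjusted p = 0.0147). SOCS3 was higher in siCTU2 (2.87), siGL2 (4.09) and pQ cells (3.40), with edgeR adjusted p-values of 1.06e-05, 0.00396 and 0.0303. CIITA was higher in all 4 conditions (0.90 to 1.35). No sensing gene passed with all libraries, and 1 of 11 was higher in mQ cells without the library that stood apart. The melanocyte gene SOX10 was higher in all 4 conditions (1.37 to 1.84).

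Over the 24 libraries at 0 h, the genes outside the lists whose log2(CPM + 1) most resembled the members' mean z-score were THEM4 (r = 0.96), MGAT5 (0.95), RBPJ (0.95), CKAP4 (0.95) and MIR3142HG (0.95), out of 9806 genes with at least 5 CPM on average. The points are libraries of the same 4 conditions, so r describes shared differences between conditions.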

How the data were processed

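Cytoplasmic RNA of A375 cells was sequenced as QuantSeq 3′-end libraries in 24 groups of 3. Per the labels and methods, the authors trimmed reads with fastp 0.20.1, aligned them to GRCh38.p13 with HISAT2 2.2.1 and counted exons with HTSeq 0.13.5, and deposited raw counts. Molecular identifiers are not given in the sources used here, so intervals cover counting error only, and genes with near-identical copies are uncertain. Totals were 5987692 to 15534331 counts, which makes 1 count worth 0.0644 to 0.167 CPM. CPM was computed from each library's total.

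Samples were grouped by their titles. Comparisons used the quasi-likelihood test of edgeR 4.0.16 (R 4.3.3) over all genes that passed filterByExpr, with Benjamini-Hochberg adjustment and a threshold of 0.05. At 0 h, TMM scaling was used. Over time, size factors came from stable genes picked from these libraries by a rule that follows the study's: detected at 0 h and with a higher CPM at 3 h or 5 h, in each replicate of either arm and condition (197 genes in the siRNA and 81 in the medium experiment). The scripts were tested on simulated data. Alternatives were other scalings, no filter, the TCHX arm, single times, left-out replicates, a replicate block and DESeq2 1.42.0. For siGL2 against pQ, siCTU2 in place of siGL2 was another.

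Members and gene lists were chosen with earlier results of these data known. Of the list genes past the threshold, those named were the ones with the largest change at 0 h (up to 3 per list and comparison) and the smallest p over time (up to 2 per list and condition). HELZ2 was named after its values were seen. Some genes that meet this rule are not reported here. The sense strands of the siRNAs were taken from the study's oligonucleotide list, and promoters from RefSeq.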

Additional observations from a re-analysis of the deposited data

Results flagged for a closer look

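The siRNA effect minus the glutamine effect at 0 h was -1.67 for DTX3L (edgeR adjusted p = 9.82e-07) and -1.17 for IRF1 (edgeR adjusted p = 0.00349), by a test of the difference itself. The IRF1 difference did not pass in the TCHX arm (-0.46, edgeR adjusted p = 0.368) or without replicate 1 (-1.09, edgeR adjusted p = 0.0573). The cycloheximide effect on DTX3L was larger in siCTU2 than in siGL2 cells by 1.01 on the log2 scale (edgeR adjusted p = 0.0114). It did not pass at 3 h alone (edgeR adjusted p = 1), under TMM scaling (edgeR adjusted p = 0.0698), with the 0 h difference subtracted (edgeR adjusted p = 0.933) or without any one replicate number (0.70 to 1.17).

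In the 3 libraries of replicate 3 that stood apart, 4 genes outside the main comparisons were high. PTPRC reached 32.6 CPM against at most 0.759 CPM in the other 69 libraries, and CD3E reached 32.6 CPM against at most 0.304 CPM. The interferon-induced genes IFITM1 and BST2 reached 34.9 and 9.73 CPM, against at most 1.69 and 0.502 CPM. ISG15 was at 35.3, 30.8 and 28.8 CPM in these libraries, against 13.5 to 31.6 CPM in the others, whereas IFIT1, IFIT2, IFIT3, DTX3L, PARP9 and IRF1 lay within the range of the others. Groups of 3 were not examined for single outlying values.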

How the results depend on the processing

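Of the members' values past the threshold, 317 kept their direction and side of it across alternatives, 91 kept the direction only and 4 changed sign. These counts include fits that are other comparisons, not other processing. They are siCTU2 in place of siGL2 against pQ, and decay in the TCHX arm or to 5 h. Sign changes of DTX3L and IFIT3 against pQ, and of IFIT2 and IFIT3 in siCTU2 decay, came from such fits. The alternatives without the libraries that stood apart were chosen after seeing the data. The cause of the changes below was not tested. In the TCHX arm, genes called fell to 810 (mQ against pQ) and 537 (siGL2 against pQ), and siCTU2 against pQ gave 4464. Decay counts for siCTU2, siGL2, mQ and pQ were 1280, 1259, 981 and 1243 with TMM. In the TCHX arm they were 517, 2529 and 4984 for siCTU2, siGL2 and mQ, and with genes stable at both times 8210, 8375 and 11406. That last scaling rests on only 8 genes in the siRNA and 3 in the medium experiment. From 0 to 5 h, 8888 and 6387 were called in siCTU2 and siGL2 cells (9143 in siCTU2 without the libraries that stood apart, and 7053 in siGL2 without replicate 3). Cycloheximide counts for siCTU2, siGL2, mQ and pQ were 590, 461, 46 and 380 at 3 h alone and 1177, 506, 1 and 703 with the 0 h difference subtracted. Genes stable at both times gave 1110 (siGL2) and 1253 (mQ), and for mQ TMM gave 1193, no filter 1548, DESeq2 1165 and leaving out the library that stood apart 2916. For siCTU2 minus siGL2, 0 genes were called at 3 h alone and 0 with the 0 h difference subtracted, 32 with TMM, 9 with genes stable at both times, 137 with no filter and 160 with DESeq2. For mQ minus pQ, no filter gave 90, leaving out the libraries that stood apart 82 and DESeq2 2.

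Leaving out each replicate gave 1476 to 3319 genes for mQ against pQ and 1862 to 3485 for the difference of the 2 effects. For decay it gave 1182 to 5892, 1277 to 6171, 2047 to 7733 and 3272 to 8621 in siCTU2, siGL2, mQ and pQ cells. For cycloheximide it gave 1275 to 2337, 688 to 2576, 1 to 3286 and 754 to 2246, and for its differences 1 to 54 (siRNA) and 0 to 301 (medium).

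The signs of these values at 0 h and over time changed. In the TCHX arm at 0 h, IFIT2 was at -1.25 (siCTU2 against siGL2). For mQ against pQ, ISG15 was at -0.50 and DTX3L at -0.13 (-0.29 and -0.18 without pQ replicate 3). For siGL2 against pQ, ISG15 was at -0.27, PARP9 at 0.28 and IRF1 at -0.23 (-0.08, 0.05 and -0.22 without it). ISG15 was at 0.04 for the difference of the 2 effects. For siCTU2 in place of siGL2 against pQ, which is another comparison, IFIT3, ISG15, DTX3L and IRF1 were at -0.49, -0.10, -1.10 and -1.31. In siCTU2 decay in the TCHX arm, IFIT2 was at 0.13 and IFIT3 at 0.00. With a replicate left out, ISG15 ranged from -0.18 to 0.18 (mQ against pQ), IRF1 from -0.10 to 0.13 (siGL2 against pQ), and for the difference of effects IFIT2 from -0.50 to 0.45 and ISG15 from -0.40 to 0.06. The cycloheximide difference ranged from -1.95 to 0.54 for IRF1 (siRNA) and from -0.02 to 0.33 for DTX3L (medium). Other values over time that did not pass also changed sign, among them ISG15 decay under TMM (0.29, 0.10 and 0.15 in siCTU2, mQ and pQ), IFIT1 decay in siCTU2 without replicate 3 (0.76), and the pQ cycloheximide values of IFIT3 and DTX3L with genes stable at both times (-0.24 and -0.09).

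No label says whether a replicate number marks a shared batch. Column names of the count table give each replicate number its own prefix, the same in all conditions, without stating its meaning. The study's own model of translation-dependent decay included the replicate as a term. Here the samples were not treated as paired. Over 21 pairs, r of their deviations was -0.0684 to 0.2135, and in 0 of 7 comparisons were all pairs over 0.1. As a hint from the data, 17 pairs matched their own number best. A replicate block gave 5101, 2463 and 3279 genes for siCTU2 against siGL2, mQ against pQ and siGL2 against pQ. Under the block, ISG15 was at -0.01 (mQ against pQ), and IFIT1 in mQ against pQ (-2.07, edgeR adjusted p = 0.0558) and IFIT2 in siCTU2 decay (-1.67, edgeR adjusted p = 0.0574) did not pass. Depth limits IFIT1, IFIT2 and IRF9 most, for which many libraries held few or 0 counts.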
